A study of Mus musculus with 3 samples.

Results

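Adhesion receptors of cultured mouse dermal fibroblasts were compared across 3 Fgfr3 genotypes: the integrins and their partners in the membrane, the cadherins and catenins, and adhesion molecules of the immunoglobulin superfamily. The members were 40 genes listed by name, of which 36 had a probe set annotated to exactly 1 gene symbol, out of 7842 named genes on the array. The FGFR3Act cells came from Fgfr3G374Rneo- mice, whose receptor signals constitutively without ligand. The FGFR3KO cells came from FGFR3G374Rneo+ mice, which make no functional receptor per the labels. Both mutant labels thus name a G374R allele, as neo- or neo+. Wild-type Bl6 mice gave the FGFR3WT cells. All were grown in fibroblast medium without treatment. The sources used here do not give the age of the mice, the zygosity, the strain background of the mutants or the passage number. The design text states n = 3 per group but the table has 1 column per genotype, and it is not stated if such a column stands for 1 culture, several pooled, or an average. No spread between cultures could therefore be computed, and every value below describes 1 array against another, with no test.

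Integrins are heterodimers of an alpha and a beta subunit that bind matrix proteins such as fibronectin, collagen and laminin outside the cell and, through talin and vinculin, actin inside it. Tetraspanins such as Cd9, Cd81 and Cd151 sit beside them in the membrane. Classical cadherins bind the same cadherin on a neighbouring cell and are held to actin by catenins, while connexins form channels between cells. Fibroblasts use the first system to pull on matrix and the second to couple to each other.

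Signals are MAS5 intensities, 1 per probe set and array, on a linear scale. The 40th percentile of each array served as a floor, 123 for FGFR3Act, 122 for FGFR3KO and 121 for FGFR3WT, and dimmer signals were set to the floor ahead of taking log2. Where 1 array of a pair lies below its floor the fold is given as "at least". Fgfr3 itself read 2.42 on FGFR3Act, 3.76 on FGFR3KO and 1.06 on FGFR3WT. All 3 values lay under the floor, so they do not check the genotypes. All 13 fibroblast markers present on the array were above the floor on every array. Of 19 macrophage and leukocyte markers, 17 were above the floor on FGFR3Act and 1 on each of the other arrays. The summed signal of that list was 50035 on FGFR3Act, 1447 on FGFR3KO and 1281 on FGFR3WT. The members of it furthest above wild type were Ctss (11427 on FGFR3Act, at least 94.6-fold), Lyz2 (7037, at least 58.3-fold), Mpeg1 (6665, at least 55.2-fold) and Mmp12 (5036, at least 41.7-fold). Of the fibroblast list, Pdgfrb was lower on FGFR3Act (2.35-fold against FGFR3WT, 2.07-fold against FGFR3KO) and Fbln1 higher on FGFR3KO (2.24-fold against FGFR3WT, 2.28-fold against FGFR3Act). Epithelial and endothelial markers were mostly below the floor, with 2 or 3 of 7 keratinocyte and 1 or 2 of 8 endothelial markers above it. In RNA from whole cultures, fewer cells of a type and less RNA per cell cannot be told apart.

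Of the 36 members on the array, 26 were above the floor on at least 1 array and 21 on all 3. Another 10 lay below the floor everywhere: Itga2, Itga4, Itga5, Itga6, Itga8, Itgae, Itgal, Itgb3, Cdh5 and Cdh15, with signals from 4.48 to 84.7. These include the alpha subunit of the main fibronectin receptor (Itga5), at 7.17 on FGFR3Act, 14.3 on FGFR3KO, 82.0 on FGFR3WT, and the endothelial cadherin Cdh5, at 9.06, 6.53 and 9.01 in the same order. The alpha subunits of the leukocyte integrins, Itgal and Itga4, were also among them. Itga5 was read by 1 probe set, and a dim signal does not show that the transcript is absent. Itga1, Itga2b, Itgb6 and Cdh1 had no probe set annotated to them alone.

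Few members were 2-fold apart. Between FGFR3Act and FGFR3WT, 3 of 26 members differed at least 2-fold, 2 higher and 1 lower on FGFR3Act, or 11.5%, against 8.92% of 5245 genes (4.14% higher, 4.79% lower). The higher ones were the tetraspanin Cd151 and the cell adhesion molecule Alcam, and the lower one was the neural cell adhesion molecule Ncam1. After quantile normalisation or cyclic loess the split was 2 higher and 0 lower, as Ncam1 then stood just inside 2-fold, and among all genes cyclic loess gave 249 higher and 193 lower against 217 and 251 as deposited. Between FGFR3KO and FGFR3WT, 0 of 25 members lay 2-fold or more above and 1 below, the cadherin Cdh13, or 4%, against 5.54% of 5185 genes apart (1.93% higher, 3.61% lower). Between FGFR3Act and FGFR3KO, 2 of 25 lay 2-fold or more above and 1 below, Cd151 and Alcam against Ncam1, or 12%, where 15.8% of 5297 genes were that far apart (8.33% higher, 7.49% lower). After median centring it was 1 higher and 1 lower, and after cyclic loess 3 and 1, as Itgb7 was added. These shares of members were near or below the share of all genes. The comparisons share arrays, so they are not independent of each other.

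**Figure D1:**
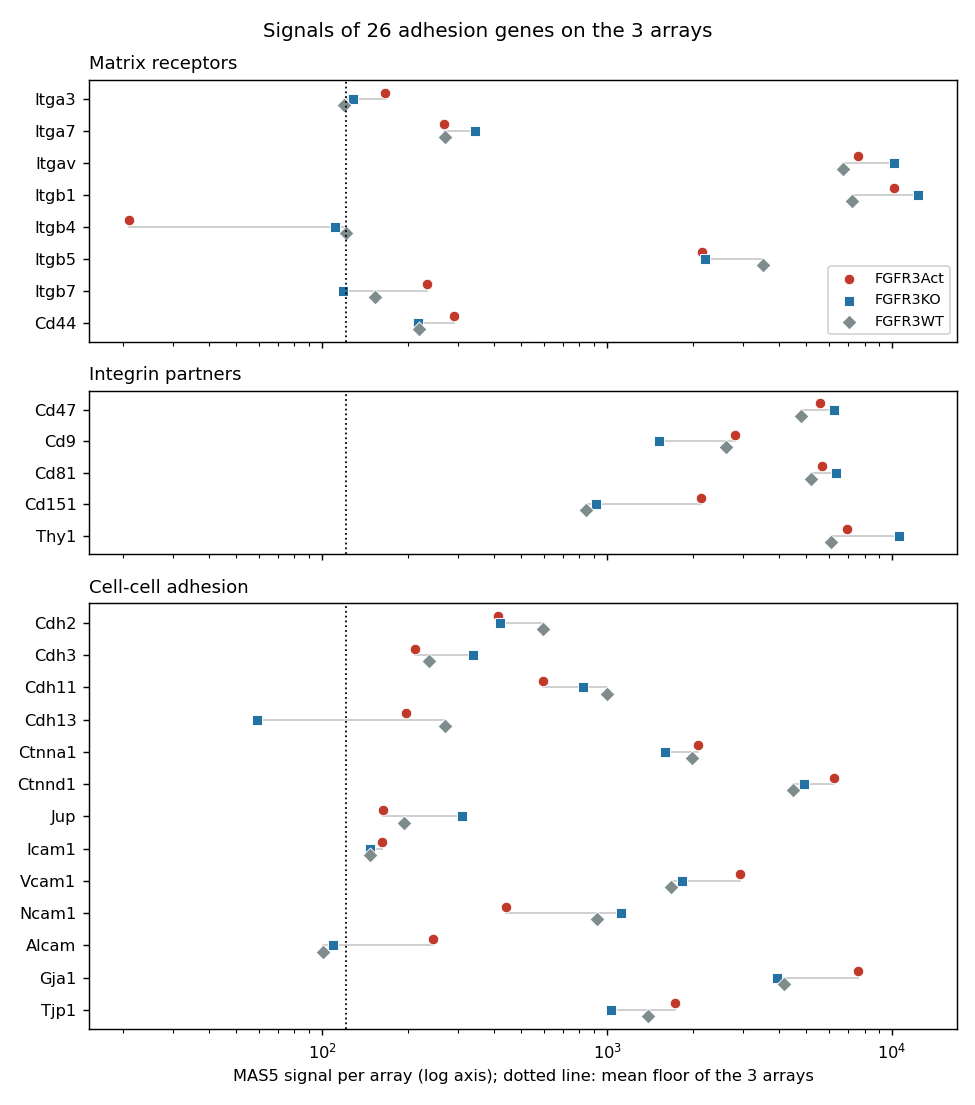
MAS5 signal (log axis) of the 26 members above the floor on at least 1 array, 1 point per array and gene, with the mean floor as a dotted line. Cd151, Alcam, Gja1 and Vcam1 are highest on FGFR3Act, Itgav, Itgb1 and Thy1 on FGFR3KO, and Itgb5 and Cdh11 on FGFR3WT.

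Among the integrin alpha subunits, Itgav, Itga7 and Itga3 could be read. Itgav, a partner of several beta subunits in receptors for vitronectin and fibronectin that also release active TGF-beta, had a signal on FGFR3Act of 7606, on FGFR3KO of 10117 and on FGFR3WT of 6730. It was highest on FGFR3KO, 1.50-fold above FGFR3WT, and 1.13-fold higher on FGFR3Act, a direction that turned after quantile normalisation (log2 difference -0.030). This rests on a probe set of the kind Affymetrix marks as shared by a sequence family, and the other Itgav probe set was below the floor on all arrays, from 95.7 to 113. Itga7, a laminin receptor subunit best known from muscle, had 267 on FGFR3Act, 343 on FGFR3KO and 269 on FGFR3WT, so only FGFR3KO stood off, by 1.28-fold. On that array 5 of 8 muscle and myoblast markers were above the floor, against 3 on each of the others, with summed signals of 4850 on FGFR3KO, 2277 on FGFR3Act and 2789 on FGFR3WT, and their part in the Itga7 value was not tested. Itga3, a laminin receptor subunit, was dim throughout, at 166 on FGFR3Act, 128 on FGFR3KO and 119 on FGFR3WT, with FGFR3Act at least 1.38-fold above wild type.

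Itgb1, the common beta subunit of most collagen, laminin and fibronectin receptors, was above wild type on both mutant arrays. Its signal was 10191 on FGFR3Act, 12323 on FGFR3KO and 7228 on FGFR3WT, which is 1.41-fold and 1.70-fold over wild type. This brighter probe set is of the sequence family kind, as for Itgav, and the second carries another Affymetrix suffix letter (r). The second gave 4198, 4077 and 3114, or 1.35-fold and 1.31-fold. Both probe sets thus placed wild type lowest, while they disagreed on which mutant was higher. After quantile normalisation the order of the mutants also turned on the brighter one, with a log2 difference of FGFR3Act over FGFR3KO of 0.033. Itgb5, which pairs with Itgav, went the other way, with 2146 on FGFR3Act, 2199 on FGFR3KO and 3516 on FGFR3WT. The mutant arrays were close to each other and lay 1.64-fold and 1.60-fold below wild type. Itgb1 and Itgb5 thus lay on opposite sides of wild type on both mutant arrays, which share the 1 wild-type array as reference.

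Itgb7, a subunit of lymphocyte homing receptors, had a signal on FGFR3Act of 234, on FGFR3KO of 118 and on FGFR3WT of 153. It was highest on the array with macrophage markers, 1.53-fold above FGFR3WT and at least 1.92-fold above FGFR3KO. Itgb4, the beta subunit of hemidesmosomes in epithelium, read 21.0 on FGFR3Act, 111 on FGFR3KO and 121 on FGFR3WT. Only wild type lay above its floor, by a margin too small to give a fold. Lowering the floor to the 20th percentile gave a log2 difference of FGFR3Act from FGFR3WT of -1.87, and an offset of 12 in place of the floor gave -2.02, both past 2-fold. Cd44, the hyaluronan receptor, had 291 on FGFR3Act, 218 on FGFR3KO and 218 on FGFR3WT. The latter arrays were alike and FGFR3Act was 1.33-fold higher than each.

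The FGFR3Act array also held macrophage transcripts, and several adhesion receptors are made by leukocytes as well. Of the 10 members on a list of such genes (Itgal, Itga4, Itgae, Itgb7, Itgav, Icam1, Cd44, Cd47, Cd9 and Cd81), 7 could be compared. All 7 were higher on FGFR3Act than on FGFR3WT, with a median log2 difference of 0.18 and a range from 0.10 to 0.61, and 0 were 2-fold apart. The direction of Itgav turned after quantile normalisation. Over all 5245 genes 44.1% were higher, with a median of -0.068. Against FGFR3KO, where as few macrophage markers were above the floor as on FGFR3WT, 4 of the 7 were higher on FGFR3Act and 3 lower (Itgav, Cd47 and Cd81), with a median of 0.14, beside 46.7% of all genes higher. Itgb2, the beta subunit shared by the leukocyte integrins and no member here, had a signal on FGFR3Act of 610, on FGFR3KO of 23.2 and on FGFR3WT of 33.5, at least 5.05-fold above wild type. The integrin subunits that pair with it, Itgal and Itgam, were below the floor on every array, with Itgam at 35.2 on FGFR3Act, and so was the pan-leukocyte marker Ptprc at 29.8. The part of these cells in the member values was not tested. On the signals as deposited and with the floor used here, 0 of these 7 members were 2-fold apart in any of the 3 pairs. Leaving the 10 out thus could not change the counts of members 2-fold apart there. These were 3 of 19, 1 of 18 and 3 of 18, which says nothing about the part of such cells. After cyclic loess Itgb7 passed 2-fold, with a log2 difference of FGFR3Act over FGFR3KO of 1.02.

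Cd151, a tetraspanin bound to the laminin-binding integrins, had the largest difference between FGFR3Act and FGFR3WT among the members when each was read by its brightest probe set on the floor used here. A dimmer Vcam1 probe set (2.62-fold) and, with a lower floor, Itgb4 differed more. The brightest Cd151 probe set gave 2135 on FGFR3Act, 917 on FGFR3KO, 844 on FGFR3WT, and its second gave 1793, 939 and 871. FGFR3Act stood apart on both, while the other arrays were alike. The fold over FGFR3WT was 2.53 with the first and 2.06 with the second probe set, and over FGFR3KO 2.33 and 1.91. Both probe sets are of the sequence family kind. The summed macrophage marker signal was also highest on FGFR3Act (50035), and its part in the Cd151 value was not tested.

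The other integrin partners varied less on FGFR3Act and more on FGFR3KO. Cd9, a tetraspanin of the fusion and motility machinery, had 2806 on FGFR3Act, 1516 on FGFR3KO and 2615 on FGFR3WT. Only FGFR3KO was low, 1.73-fold below wild type and 1.85-fold below FGFR3Act. Its relative Cd81 was nearly level, at 5675, 6353 and 5196 in the same order of arrays. Thy1, a glycolipid-anchored surface protein of fibroblasts that binds integrins, had 6948 on FGFR3Act, 10611 on FGFR3KO and 6088 on FGFR3WT. FGFR3KO was the high array, 1.74-fold above wild type. On FGFR3KO the summed signal of 13 fibroblast markers was also highest, at 90195 against 59753 on FGFR3Act and 68238 on FGFR3WT. Taken singly, 8 of the 13 were higher on FGFR3KO than on FGFR3WT and 5 lower. After quantile normalisation 3 were higher and 10 lower.

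Cd47, the receptor for thrombospondin that also signals "do not eat" to phagocytes, had probe sets that disagreed. The brighter read 5605 on FGFR3Act, 6250 on FGFR3KO and 4799 on FGFR3WT, with FGFR3KO 1.30-fold above wild type. The dimmer read 1053, 513 and 769, with FGFR3KO 1.50-fold below wild type. The probe sets shared a direction for FGFR3Act over FGFR3WT, by 1.17-fold and 1.37-fold.

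The cadherins were lower on FGFR3Act than on wild type. All 4 that could be compared lay below FGFR3WT, with a median log2 difference of -0.49 and a range from -0.74 to -0.17 on the signals as deposited, and 0 were 2-fold apart. The direction of all 4 held under each scaling tried, with medians of -0.43 after quantile normalisation, -0.48 after median centring and -0.41 after cyclic loess. Over all genes 2923 of 5245 were lower on FGFR3Act. Of the general fibroblast markers 11 of 13 were lower on that array too, with a median of -0.42, and their part in the cadherin values was not tested. Cdh11, the main cadherin of mesenchymal cells and fibroblasts, had 596 on FGFR3Act, 821 on FGFR3KO and 997 on FGFR3WT. Both mutants were below wild type, by 1.67-fold and 1.21-fold. N-cadherin (Cdh2) had 414 on FGFR3Act, 421 on FGFR3KO and 596 on FGFR3WT, so the mutant arrays were alike and 1.44-fold and 1.42-fold below wild type. P-cadherin (Cdh3), an epithelial cadherin, was highest on FGFR3KO instead, at 337 against 212 on FGFR3Act and 237 on FGFR3WT.

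Cdh13, a cadherin that is anchored to the membrane by a lipid and has no catenin-binding tail, had 197 on FGFR3Act, 59.2 on FGFR3KO and 270 on FGFR3WT. It was below the floor on FGFR3KO alone, at least 2.22-fold lower than on wild type. This was the only member 2-fold apart between FGFR3KO and FGFR3WT. Against FGFR3Act it was at least 1.61-fold lower, and with the lower floor, at the 20th percentile, the log2 difference of FGFR3Act over FGFR3KO was 1.73.

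Proteins that hold junctions together were mostly higher on FGFR3Act, with 4 of 5 above FGFR3WT and 4 of 5 above FGFR3KO, beside 44.1% and 46.7% of all genes. Gja1 (connexin 43), the main gap junction protein of fibroblasts, had 7571 on FGFR3Act, 3940 on FGFR3KO and 4174 on FGFR3WT with its brighter probe set, and 839, 210 and 355 with the dimmer. The brighter one is of the sequence family kind, and the dimmer carries another Affymetrix suffix letter (r). FGFR3Act was the high array on both, 1.81-fold and 2.36-fold above wild type and 1.92-fold and 4.0-fold above FGFR3KO. Tjp1 (ZO-1), a scaffold that binds connexin 43 and tight junction proteins, followed the same order, with 1728 on FGFR3Act, 1029 on FGFR3KO and 1391 on FGFR3WT. FGFR3Act was 1.24-fold above and FGFR3KO 1.35-fold below wild type.

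The catenins Ctnnd1 and Ctnna1 were also highest on FGFR3Act. Ctnnd1 (p120), which keeps cadherins at the membrane, had 6240 on FGFR3Act, 4899 on FGFR3KO, 4492 on FGFR3WT, and 840, 346 and 513 with its second probe set. FGFR3Act was highest on both, by 1.39-fold and 1.64-fold over wild type, while FGFR3KO was above wild type on one and below it on the other. Alpha-catenin (Ctnna1), the link to actin, had 2085, 1593 and 1992, with FGFR3Act only 1.05-fold above and FGFR3KO 1.25-fold below wild type. Plakoglobin (Jup), a catenin of desmosomes and adherens junctions, was the exception, with 163 on FGFR3Act, 309 on FGFR3KO and 195 on FGFR3WT. It was 1.59-fold higher on FGFR3KO than on wild type and 1.89-fold higher than on FGFR3Act.

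The 4 immunoglobulin superfamily members ran from -1.06 to 1.02 in log2 difference between FGFR3Act and FGFR3WT. Vcam1, the ligand of integrin alpha-4 beta-1 through which leukocytes bind stroma, had 3 probe sets, which gave 2916, 1719 and 752 on FGFR3Act, 1832, 459 and 221 on FGFR3KO, and 1675, 657 and 349 on FGFR3WT. FGFR3Act was the high array on all 3, by 1.74-fold, 2.62-fold and 2.16-fold over wild type and by 1.59-fold, 3.75-fold and 3.41-fold over FGFR3KO. Against wild type FGFR3KO was 1.09-fold higher on the brightest probe set and 1.43-fold and 1.58-fold lower on the others. Taken by its brightest probe set, Vcam1 was thus not counted as 2-fold apart, and by the mean over its probe sets it was (log2 difference 1.10). Icam1, a ligand of leukocyte integrins, was nearly level at 162, 147 and 147.

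Ncam1, which binds itself on neighbouring cells and can also bind FGF receptors, had 441 on FGFR3Act, 1118 on FGFR3KO and 919 on FGFR3WT. FGFR3Act was the low array, 2.08-fold below wild type and 2.54-fold below FGFR3KO, and after quantile normalisation and cyclic loess the log2 differences from wild type were -0.93 and -0.92. The summed muscle marker signal, of cells that also make Ncam1, had the same order of arrays, 2277, 4850 and 2789, and its part was not tested. Most of that sum was 1 gene, the cardiac actin Actc1, at 1597, 3862 and 2090. Des, Chrna1 and Tnnc1 of that list were below the floor on every array, and Myog (165) and Tnnt2 (134) were above it on FGFR3KO alone. Alcam, which binds itself and the T cell molecule CD6, had 245 on FGFR3Act, 109 on FGFR3KO and 101 on FGFR3WT. It was above the floor on FGFR3Act alone, at least 2.03-fold over FGFR3WT and 2.01-fold over FGFR3KO. After median centring its log2 difference from FGFR3KO was 0.99. FGFR3Act was also the array with the highest summed macrophage marker signal (50035), and its part in the Alcam value was not tested. Alcam was not on the list of leukocyte-expressed members above.

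**Figure D2:**
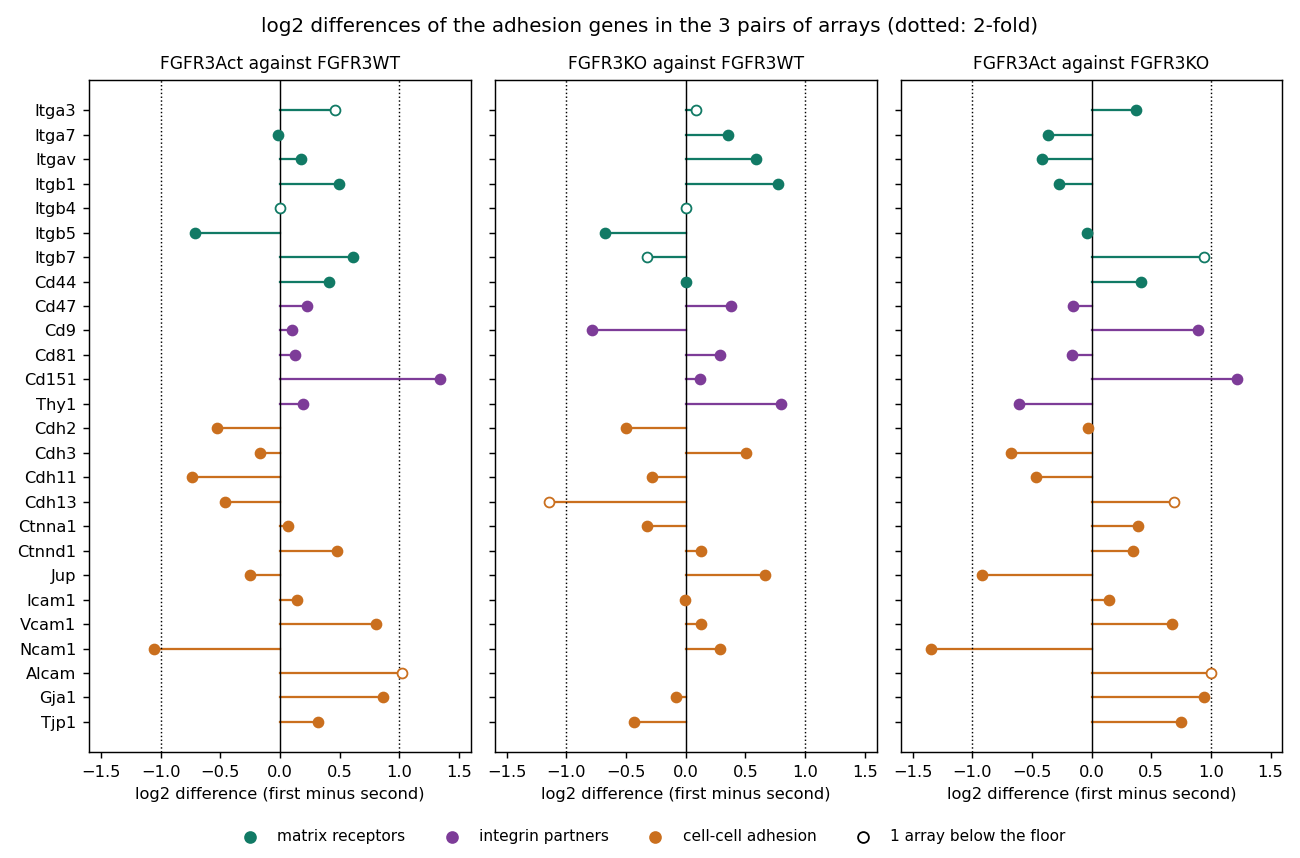
log2 difference of each member in the 3 pairs of arrays, coloured by group, with open points where 1 array was below the floor and dotted lines at 2-fold. Cd151, Alcam and Ncam1 reach 2-fold in both panels with FGFR3Act, and Cdh13 in FGFR3KO against FGFR3WT.

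The promoters of Cd151, Alcam and Gja1 are printed, a selection from the 12 members that peaked on FGFR3Act. Cd151 and Alcam were the ones that passed 2-fold upward in both pairs with this array. Gja1 stayed within 2-fold by its brightest probe set and was added by choice. Windows of the other members that peaked there are not shown. Each window is the 250 bases before the RefSeq start on build GRCm38.p6, written 5′ to 3′ on the gene's strand. Capitals mark matches on either strand to the AP-1 motif TGANTCA, the cAMP response element TGACGTCA, the GC box GGGCGG and the TATA box TATAAA, which do not contain one another. Cd151 has a second start site, whose window held no match and is not shown.
Cd151, chr7:141467112-141467361, strand plus: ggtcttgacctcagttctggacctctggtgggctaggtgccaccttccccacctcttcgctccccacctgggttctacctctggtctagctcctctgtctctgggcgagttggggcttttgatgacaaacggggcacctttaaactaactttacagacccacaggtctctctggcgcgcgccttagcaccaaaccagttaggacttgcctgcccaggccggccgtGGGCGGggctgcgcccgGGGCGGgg
Alcam, chr16:52453082-52453331, strand minus: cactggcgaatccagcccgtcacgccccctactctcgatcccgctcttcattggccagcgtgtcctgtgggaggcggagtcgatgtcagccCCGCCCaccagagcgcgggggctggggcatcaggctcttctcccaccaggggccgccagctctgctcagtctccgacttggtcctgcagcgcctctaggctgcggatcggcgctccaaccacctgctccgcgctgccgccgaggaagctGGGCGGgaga
Gja1, chr10:56377050-56377299, strand plus: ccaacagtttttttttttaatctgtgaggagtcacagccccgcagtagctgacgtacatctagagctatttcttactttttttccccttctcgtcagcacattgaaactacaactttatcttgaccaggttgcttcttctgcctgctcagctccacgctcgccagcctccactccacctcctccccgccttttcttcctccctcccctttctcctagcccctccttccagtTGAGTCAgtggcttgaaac
The Gja1 window held 1 AP-1 match, beginning 19 bases before the start, and 0 GC boxes. The Cd151 and Alcam windows each held 2 GC boxes and 0 AP-1 matches, so these windows did not share a motif searched for among all 3 genes. Over all 32851 windows, 6.75% held the AP-1 motif, 1.55% the cAMP response element, 32.7% the GC box and 12.4% the TATA box. Over the 29 windows of the 24 members found in the table, 1 held the AP-1 motif, 0 the cAMP response element, 16 the GC box and 1 the TATA box. The motifs were chosen after the signals were seen, and a match does not show that a factor binds there.

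Matrix receptors (the integrins and Cd44) were then set against cell-cell adhesion genes (cadherins, catenins, junction proteins and the immunoglobulin superfamily). The first group takes in every integrin, also Itgb7 of the lymphocyte homing receptors. Itgb7 had its highest log2 difference for FGFR3Act, 0.61 against FGFR3WT and at least 0.94 against FGFR3KO. On FGFR3Act against FGFR3WT the median log2 difference was 0.30 over 8 matrix receptors and 0.066 over 13 cell-cell adhesion genes, and -0.068 over all genes. With the mean over probe sets the difference between the group medians was -0.037 in place of 0.23, with the floor at the 60th percentile -0.013, and without the leukocyte-expressed members 0.050. On FGFR3KO against FGFR3WT the medians were 0.043 over 8 and -0.045 over 12, and -0.017 over all genes. Here the sign turned with the floor at the 20th percentile, to -0.083, and the difference grew to 0.77 with the floor at the 60th. In both pairs with FGFR3WT the 8 matrix receptors include Itgb4, entered as 0 for want of a bound, and Itga3, entered as a bound. With both arrays above the floor the matrix receptor medians were 0.30 for FGFR3Act and 0.35 for FGFR3KO. Between FGFR3Act and FGFR3KO the order was the reverse, at -0.035 over 7 matrix receptors and 0.35 over 13 cell-cell genes, and -0.052 over all genes. Of these 3 differences, only that between FGFR3Act and FGFR3KO held its sign under every alternative tried, from -0.64 to -0.076. Within cell-cell adhesion the families went apart, with cadherin medians of -0.49, -0.39 and -0.24 in the 3 pairs. The medians of the catenins and junction proteins were 0.31, -0.084 and 0.39. Of the 4 cadherins, 1 was higher and 3 lower on FGFR3Act than on FGFR3KO as deposited. After quantile normalisation or cyclic loess, 2 were higher and 2 lower in that pair. The 5 integrin partners had medians of 0.19, 0.29 and -0.16.

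**Figure D3:**
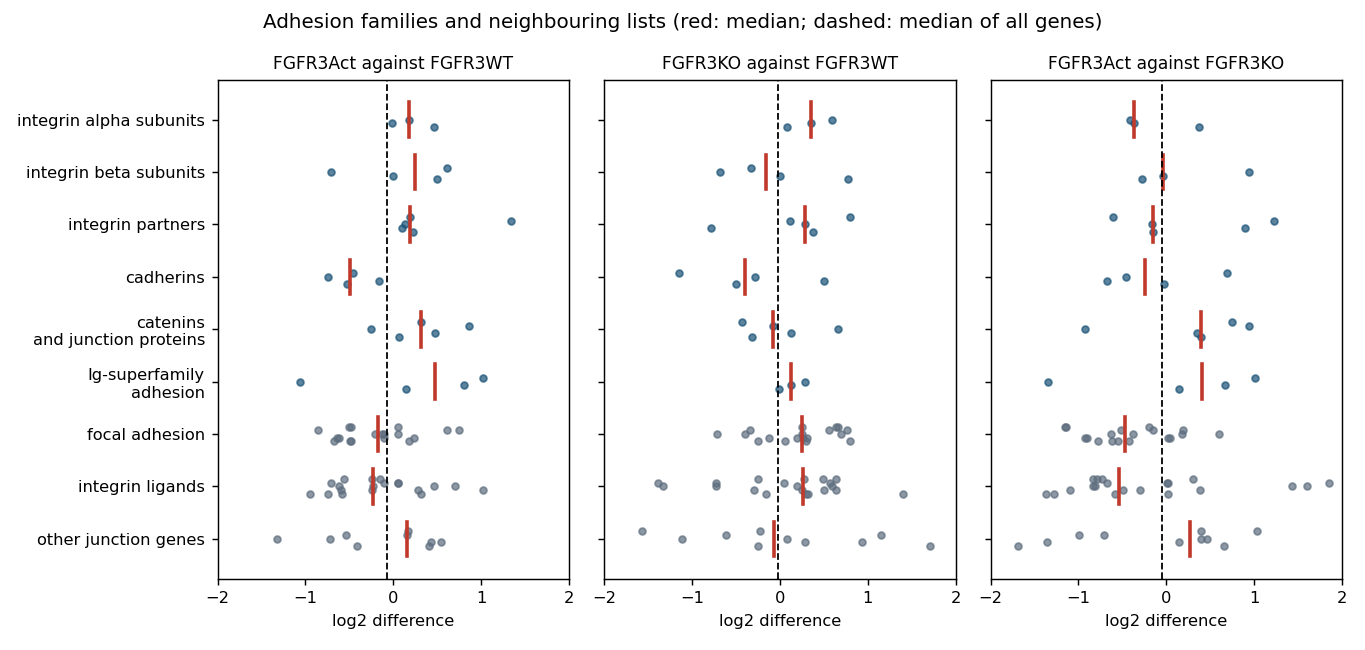
log2 differences by family (points, 1 per gene), with the family median in red and the median of all genes dashed, for the 6 member families and 3 lists of other adhesion genes. The cadherin median lies left of the dashed line in each panel, while that of catenins and junction proteins lies right of it in both panels with FGFR3Act.

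Taken by the array that was highest, 12 of the 26 members (46.2%) peaked on FGFR3Act, 9 on FGFR3KO and 5 on FGFR3WT. Over the 5383 genes above the floor on any array, 32.6%, 37.3% and 30.1% did so. Of the 13 cell-cell adhesion genes 7 peaked on FGFR3Act, and of the 8 matrix receptors 3. Among the 5 integrin partners 0 peaked on FGFR3WT and 4 were lowest there, on the signals as deposited. Of the 5383 genes 22.8% were lowest on FGFR3WT.

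Neighbouring genes of the same machinery gave a context. Focal adhesion genes, which join integrins to actin, were lower on FGFR3Act than on FGFR3WT in 12 of 18, where 2923 of all 5245 genes were lower, with a median of -0.17. On FGFR3KO 13 of 18 were higher than on FGFR3WT, beside 48.4% of all genes, with a median of 0.26. After cyclic loess the median for FGFR3Act against FGFR3WT was -0.049. None was 2-fold from wild type, beside 8.92% of all genes for FGFR3Act and 5.54% for FGFR3KO. Between FGFR3Act and FGFR3KO 13 of 18 were lower, beside 2820 of all 5297 genes, with a median of -0.47, and 2 were at least 2-fold lower: the actin crosslinker Actn4 (2522 on FGFR3Act, 5560 on FGFR3KO, 2.20-fold) and the LIM protein Csrp1 (1406 and 3125, 2.22-fold). Over all genes 7.49% were that much lower. Talin (Tln1) had 844 on FGFR3Act, 1299 on FGFR3KO, 745 on FGFR3WT, and vinculin (Vcl) 7133, 6953 and 6067.

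Of the integrin ligands, 1 of 19 lay 2-fold or more above FGFR3WT on FGFR3Act, the matricellular tenascin C (Tnc), with 5617 against 2773, and 0 after cyclic loess. As deposited, 4.14% of all genes were that much higher. On FGFR3KO 1 of 20 was at least 2-fold higher than on FGFR3WT, the alpha-8 integrin ligand nephronectin (Npnt, at least 2.63-fold), and 2 were lower, Ccn1 (982 against 2462) and Ccn2 (3083 against 8061). The shares of all genes were 1.93% higher and 3.61% lower. Between FGFR3Act and FGFR3KO 3 of 20 were at least 2-fold higher and 3 lower, beside 8.33% and 7.49% of all genes. The median of the 20 was -0.54, against -0.052 over all genes. The 3 higher were Ccn2 (3.60-fold), Ccn1 (3.04-fold) and the thrombospondin Thbs2 (2.70-fold), and the 3 lower were Npnt (at least 2.59-fold), Col3a1 (2.42-fold) and Col4a1 (2.14-fold). Fibronectin (Fn1) was nearly level, at 2001 on FGFR3Act, 1981 on FGFR3KO and 1613 on FGFR3WT. The alpha-8 subunit Itga8 was itself below the floor on every array.

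Most other junction genes were dim, and 9 or 10 of 32 on the array could be compared in a pair. The endothelial and pericyte adhesion molecule Mcam was 2.49-fold lower on FGFR3Act than on FGFR3WT, at 373 against 930. It was the only 1 of 9 past 2-fold in that pair, beside 8.92% of all genes. On FGFR3KO the epithelial connexin Gjb2 (at least 3.26-fold) and the nectin Nectin2 (2.21-fold) were higher than on FGFR3WT, and Jam3 (2.98-fold) and Pcdh7 (at least 2.17-fold) lower. These were 4 of 10, beside 5.54% of all genes. Against FGFR3KO, FGFR3Act was 2.04-fold higher in Jam3, and lower in Gjb2 (at least 3.21-fold) and the desmosomal plakophilin Pkp2 (2.56-fold). Those were 3 of 10, beside 15.8% of all genes. Beta-catenin (Ctnnb1), the partner of cadherins that also carries WNT signals, had 7451 on FGFR3Act, 4726 on FGFR3KO and 5631 on FGFR3WT, the order of arrays also seen for Tjp1, Gja1 and Ctnna1.

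Several probe sets per gene gave a check of the members within an array. Of 10 members with more than 1 probe set, 6 had several above the floor: Itgb1, Ctnnd1, Vcam1, Cd47, Cd151 and Gja1. For FGFR3Act against FGFR3WT the probe sets pointed the same way in 6 of 6 genes. For FGFR3KO against FGFR3WT they did so in 3 of 6, with Cd47, Ctnnd1 and Vcam1 opposed, and for FGFR3Act against FGFR3KO in 4 of 6, with Cd47 and Itgb1 opposed. In 4 of the 6 genes a dimmer probe set differed more than the brightest one in each of the 3 pairs.

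**Figure D4:**
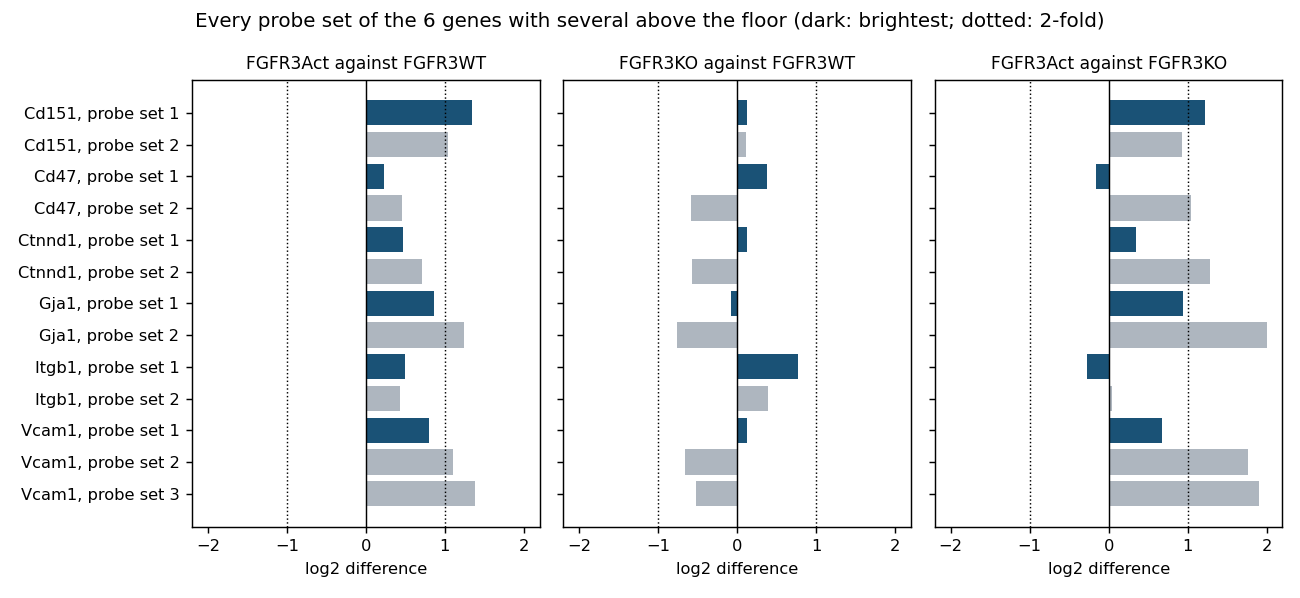
log2 difference of every probe set of the 6 genes with several above the floor, as bars from 0, with the brightest in dark and the 2-fold lines dotted. All bars point right in FGFR3Act against FGFR3WT, and the lighter bars of Cd47, Ctnnd1, Gja1 and Vcam1 reach further than the dark ones in FGFR3Act against FGFR3KO.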

How the data were processed

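Gene expression was measured on 1 Affymetrix array column for each of 3 genotypes, from 15 μg of total RNA labelled with biotin, per the labels. The authors deposited linear intensities made with MAS5, per the submitters' processing notes, an algorithm that summarises the probes of a set into 1 signal. The sources used here do not give its version, scaling target or detection calls. Means after trimming 2% at each end were 613 (FGFR3Act), 606 (FGFR3KO) and 614 (FGFR3WT), so no further scaling was applied.

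Of 9889 probe sets, 18 are controls, 9053 carry 1 gene symbol and 323 several. Symbols were taken from GEO's platform annotation and updated by gene identifier from RefSeq GRCm38.p6 (9041 matched). Among several probe sets of a gene the one brightest by mean log2 signal was used, and a gene entered a pair if above the floor (40th percentile) on at least 1 array. A bound that pointed the wrong way because the floors differ slightly was set to 0. The threshold of 2-fold describes size and is no test. The number of arrays limits the precision.

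Every member above the floor is named, and of other lists, markers included, those at least 2-fold apart (up to 4 per direction). Tln1, Vcl, Fn1, Ctnnb1, Itgb2, Itgam, Ptprc, Itga6, Cd34, Krt10, Krt17, Des, Chrna1, Tnnc1, Myog and Tnnt2 were singled out after their values were seen. The members, lists and settings were chosen with earlier results of these data known. Alternatives were quantile normalisation, median centring and cyclic loess (limma 3.58.1, R 4.3.3), other floors, an offset of 12, other filters and other choices of probe sets. The arithmetic was tested on simulated data.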

Additional observations from a re-analysis of the deposited data

How the results depend on the processing

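No paired analysis was possible because each genotype has 1 array column, and no replicate could be left out for the same reason. The number of members 2-fold apart was 3 between FGFR3Act and FGFR3WT, 1 between FGFR3KO and FGFR3WT and 3 between FGFR3Act and FGFR3KO. With the floor at the 20th percentile, where 34, 33 and 33 members were compared, these became 7, 2 and 7, beside 13.2%, 8.85% and 18.8% of all genes. With the mean over probe sets the first and the last became 5 and 5, as Vcam1 and Gja1 were added. Cdh13 was no longer counted in FGFR3KO against FGFR3WT with the floor at the 60th percentile or with both arrays above the floor, which left 0. The other alternatives kept the counts within 1.5 times. Cd151 rests on 2 probe sets of the sequence family kind; without it (a setting chosen after seeing the data) the counts for both pairs with FGFR3Act were 2 and 2.

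The matrix receptor median minus the cell-cell adhesion median was 0.23, 0.088 and -0.38 in the same order of pairs. With the floor at the 60th percentile, where 16 members were compared in each pair, it was -0.013, 0.77 and -0.64. With the floor at the 20th percentile it was -0.083 in FGFR3KO against FGFR3WT and -0.085 in FGFR3Act against FGFR3KO. The mean over probe sets gave -0.037 in FGFR3Act against FGFR3WT, and both arrays above the floor gave 0.36 in FGFR3KO against FGFR3WT. With no filter it was 0 in the pairs with FGFR3WT. With only probe sets without a suffix letter, chosen after seeing the data, it was -0.076 in FGFR3Act against FGFR3KO. The cause was not tested. Of the single members' differences, 893 stayed on their side of 2-fold under an alternative, 9 crossed to beyond it, and 3 crossed to within it. The sign turned in 16 of these 905, which belong to 11 differences, none of them 2-fold apart: 12 with another scaling and 4 with the mean over probe sets. The latter were Cd47 between FGFR3Act and FGFR3KO (from -0.16 to 0.44), and Cd47 (0.38 to -0.10), Ctnnd1 (0.13 to -0.22) and Vcam1 (0.13 to -0.35) between FGFR3KO and FGFR3WT.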

Other observations

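Averaging over probe sets took 2 more members past 2-fold in each pair with FGFR3Act. For Vcam1, FGFR3Act stood 1.74-fold over FGFR3WT by its brightest probe set, and 2.62-fold and 2.16-fold by the others. For Gja1 the values were 1.81-fold and 2.36-fold. Between FGFR3Act and FGFR3KO the dimmer probe sets gave 4.0-fold for Gja1, 3.75-fold and 3.41-fold for Vcam1, 2.43-fold for Ctnnd1 and 2.05-fold for Cd47, against 1.92-fold, 1.59-fold, 1.27-fold and a value of opposite sign (log2 difference -0.16) with the brightest.

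Signals of members below the floor were given no fold, and some are listed here as values. The laminin receptor subunit Itga6 had 69.7 on FGFR3Act, 13.4 on FGFR3KO and 11 on FGFR3WT. Itga2, a collagen receptor subunit, had 84.7, 23.3 and 32.4, and Itgb3, the partner of Itgav in the vitronectin receptor, 9.58, 39.6 and 29.3. The endothelial marker Cd34 was above the floor on FGFR3Act alone, at 181 against 86.1 and 87.7. Perp, a desmosome-associated protein on the keratinocyte list, had 1928 against 554 and 629, and the keratins Krt10 and Krt17 of that list were below the floor on every array. On the muscle list, Actc1 had 1597 on FGFR3Act, 3862 on FGFR3KO and 2090 on FGFR3WT, 2.42-fold lower on FGFR3Act than on FGFR3KO.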
